A study of Rattus norvegicus with 8 samples.

Results

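The genes described here mark the walls of brain blood vessels: 40 genes chosen by what they are known to mark, 32 of endothelial cells and of the barrier they form, and 8 of mural cells, the pericytes and smooth muscle cells around them. They were found by their gene names on a rat expression array, among 19308 named genes in all. A probe was present for all 40, although the array lists Mfsd2a only under its older name Mfsd2. After a filter on dim probes 39 were tested, 31 endothelial and 8 mural. The samples were hippocampi of male Sprague Dawley rats aged 3 months. In one group, 4 rats had received yohimbine together with imipramine for 7 days (Y+I), and in the other 4 rats had received vehicle for 7 days. Hippocampi were taken 2 h after treatment, per the labels. Yohimbine blocks alpha2-adrenoceptors and imipramine inhibits the reuptake of noradrenaline and serotonin. The study asks how the combination alters hippocampal gene expression. Neither drug was given alone in the samples used here, so the drugs cannot be told apart.

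Brain endothelial cells are joined by tight junctions and carry transporters that decide which solutes enter the brain, and together these make the blood-brain barrier. Pericytes are embedded in the capillary wall and help keep the barrier closed, while smooth muscle cells of arterioles set vessel width. Endothelial identity is kept by transcription factors of the ETS and SOX families. The angiopoietin ligands act on the receptor TEK of endothelial cells, and endothelin and nitric oxide made by endothelial cells constrict and relax the muscle around them.

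Each rat was measured on its own 1-colour array, and all 8 arrays shared 1 slide, with Y+I on one row and vehicle on the other, which means that a difference between the rows cannot be told apart from one between the treatments. In Y+I arrays, 64.4% to 74.8% of 58717 spots were well above background, against 76.4% to 79.7% in vehicle arrays. Each processed signal was put on the log2 scale and set against the 75th percentile of its array, giving normalised log2 signals. They compare 1 probe between animals and not different probes with each other. The median SD of a member between animals was 0.25 in Y+I and 0.17 in vehicle, against 0.24 and 0.13 over all features. The number of arrays limits the precision. A gene counts as changed when limma gave it an adjusted p below 0.05, with Benjamini-Hochberg adjustment over 18803 features. In bulk tissue, fewer cells of a type and less RNA per cell cannot be told apart.

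Of the 31 endothelial members, Apold1 rose and Edn1 and Sox18 fell, and 28 did not pass. Edn1 was well above background on 1 of 4 Y+I arrays only. Of the 8 mural members, Vtn fell and 7 did not pass. Over all features, 2.33% were called, 0.739% as higher and 1.60% as lower in Y+I. The median log2 difference, Y+I minus vehicle, was -0.21 for endothelial and -0.16 for mural members, against -0.02 for all features. It was below 0 for 21 of the 31 endothelial and 7 of the 8 mural members, against 54.1% of all features. By an unadjusted p under 0.05, which 6.46% of all features passed as higher and 9.16% as lower, 2 endothelial members were higher and 10 lower, and 3 mural members were lower. Groups that did not overlap were found for 2 endothelial members as higher and 8 as lower, and for 3 mural members as lower, against 5.04% and 6.65% of all features. These counts include 5 endothelial members that were dim in Y+I and passed the filter through vehicle alone, which favours a lower value. Among the 26 endothelial members well above background on all 8 arrays, 8 were lower at an unadjusted p under 0.05 and 6 were lower without overlap, against 7.31% and 6.12% of the features so measured. The members and the measure were chosen with earlier results of these data known, and these counts carry no test of the lists.

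**Figure D1:**
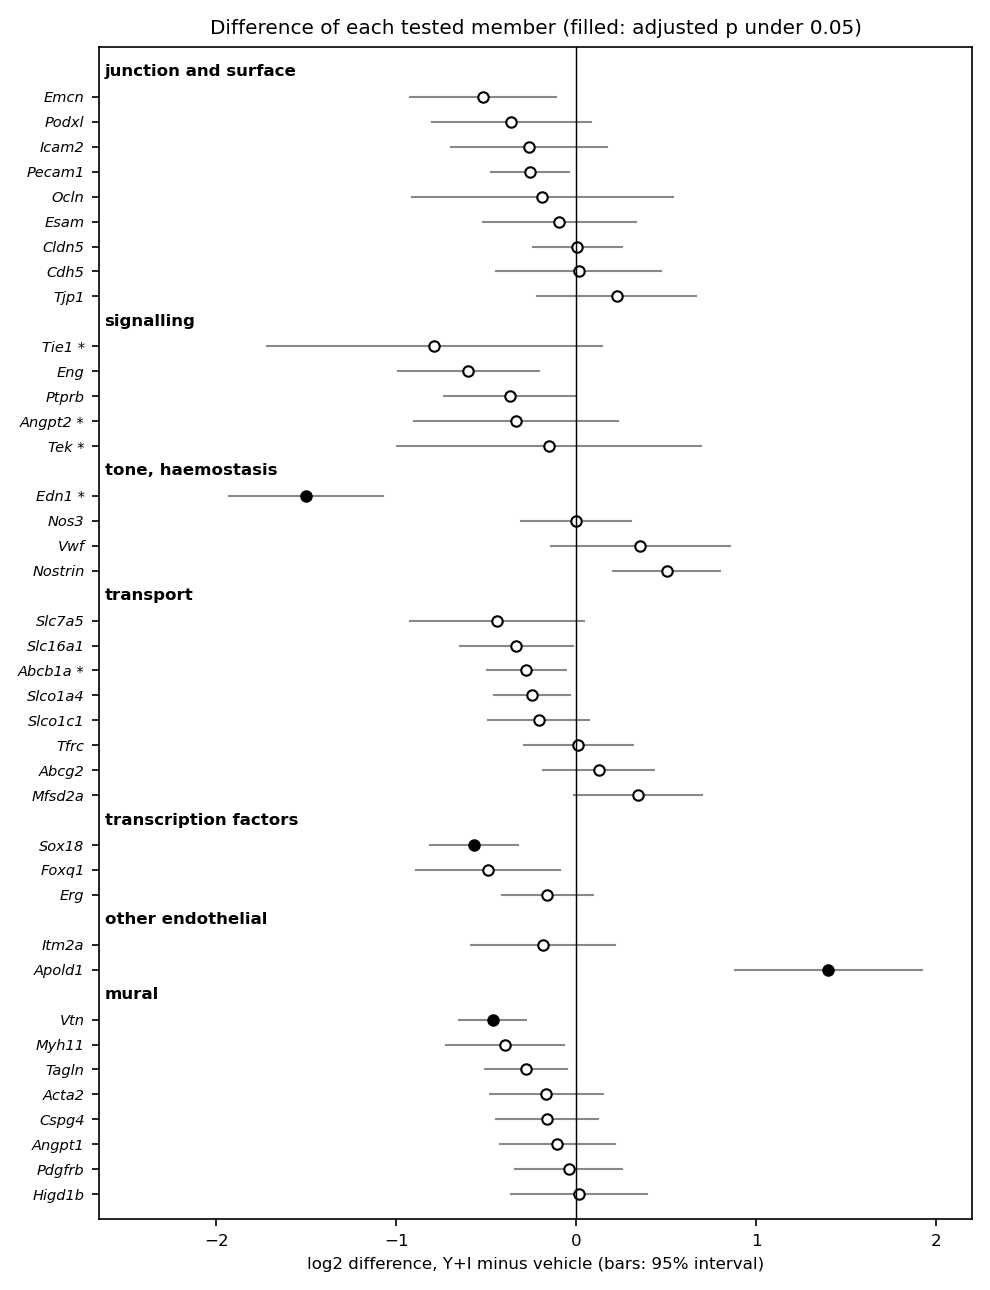
Log2 difference of each of the 39 tested members, Y+I minus vehicle, ordered by role, with 95% intervals from limma (4 animals per group). Filled points (Apold1, Edn1, Sox18 and Vtn) had an adjusted p under 0.05, and an asterisk marks genes for which fewer than 4 Y+I arrays were well above background.

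For 3 of the 4 changed members the promoter is given here, from RefSeq on rat build GRCr8, to show the sequence ahead of the genes whose RNA differed. Each runs 5′ to 3′ from 250 bases before to 50 bases after the annotated start. Capitals mark the core GGAA of sites for ETS factors, on either strand (so also TTCC), and the GATA core AGATAA, on either strand (so also TTATCT).
Apold1, chr4:169552349-169552648, plus strand: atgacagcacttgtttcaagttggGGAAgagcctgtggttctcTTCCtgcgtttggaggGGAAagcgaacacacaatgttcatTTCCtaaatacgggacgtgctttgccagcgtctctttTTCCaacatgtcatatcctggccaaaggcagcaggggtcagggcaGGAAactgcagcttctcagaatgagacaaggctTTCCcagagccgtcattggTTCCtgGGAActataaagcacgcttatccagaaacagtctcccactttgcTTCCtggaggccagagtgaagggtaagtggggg
Edn1, chr17:22666638-22666937, minus strand: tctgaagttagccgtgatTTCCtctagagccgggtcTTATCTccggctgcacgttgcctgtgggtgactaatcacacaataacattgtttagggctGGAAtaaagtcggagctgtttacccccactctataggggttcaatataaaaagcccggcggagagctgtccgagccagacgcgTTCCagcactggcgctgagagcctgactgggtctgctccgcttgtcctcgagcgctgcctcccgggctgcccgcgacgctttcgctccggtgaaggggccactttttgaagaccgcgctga
Vtn, chr10:63892532-63892831, plus strand: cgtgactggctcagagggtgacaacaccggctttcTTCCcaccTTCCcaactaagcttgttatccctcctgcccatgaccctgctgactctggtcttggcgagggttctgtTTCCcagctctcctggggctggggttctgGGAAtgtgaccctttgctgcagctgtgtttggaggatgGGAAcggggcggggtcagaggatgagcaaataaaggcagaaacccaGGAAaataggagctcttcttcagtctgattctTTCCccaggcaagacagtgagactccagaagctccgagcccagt

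The Apold1 window held 10 ETS cores, a number reached by 0.621% of the 33469 rat promoter windows of the same length. The Vtn window held 7, reached by 8.42%, and the Edn1 window 3, which is also the median. At least 1 such core occurs in 95.8% of all windows. The GATA core was found once, in Edn1, and occurs in 11.6% of all windows. None of the 3 windows held an exact match to the other motifs searched, on either strand. These were the cAMP response element TGACGTCA (in 1.83% of windows) and the AP-1 site TGANTCA (in 7.33%). The hexamer AGAACA of glucocorticoid response elements (in 20.7%) and the CArG box (in 1.64%) were the others. Sites that depart from the letters searched would be missed. The search covered these windows only, and a match is not a measured binding site.

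Apold1, an early response gene of endothelial cells, was the only member that rose. Its normalised log2 signals were -1.95, -1.96, -2.85 and -2.20 in Y+I animals 1 to 4, against -3.81, -3.90, -3.63 and -3.21 in vehicle animals 1 to 4. All 4 Y+I animals lay above all 4 vehicle animals, and Y+I animal 3 came closest to vehicle. The difference was 1.40 ± 0.23 (SE), with a 95% interval of 0.88 to 1.92, or 2.64-fold (limma adjusted p = 0.0211). The probe, at 171907496 to 171907555 on chromosome 4 of build rn4, was well above background on all 8 arrays. With normexp background correction and an offset of 50 added to every signal, here called normexp with offset, the difference was 1.15 (adjusted p = 0.00567). The call held without Y+I animal 3 (adjusted p = 0.0117) or vehicle animal 4 (0.0413). It was lost without any 1 of the other animals, with adjusted p between 0.0511 without Y+I animal 1 and 0.0642 without vehicle animal 1.

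Among transcription factors, Sox18 fell, and Erg and Foxq1 did not pass. Sox18 is an endothelial SOX factor needed for vessel development. Its signals were -1.79, -1.95, -2.00 and -1.74 in Y+I animals 1 to 4, against -1.17, -1.30, -1.49 and -1.26 in vehicle animals 1 to 4. The groups did not overlap, and each held its animals within a narrow range. Sox18 fell by 0.57 ± 0.11 (SE), which makes it 1.48-fold lower in Y+I (limma adjusted p = 0.0351), and by 0.46 with normexp and offset (adjusted p = 0.0445). It was read by a probe on chromosome 3 of rn4, at 170820677 to 170820736. When single animals were left out, the call held without Y+I animal 4 (adjusted p = 0.0490). It was lost in the other 7 such fits, with adjusted p up to 0.124 without vehicle animal 4.

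Foxq1, a forkhead factor found in brain endothelium, had signals of -4.49, -4.19, -3.78 and -4.00 in Y+I animals 1 to 4, against -3.46, -3.78, -3.88 and -3.39 in vehicle animals. The ranges overlapped, and the difference of -0.49 ± 0.18 did not pass (limma adjusted p = 0.213). The ETS factor Erg was at -0.16 ± 0.11 (adjusted p = 0.546), with -0.30 at its other probe. Sox17, a relative of Sox18, was not tested, because its probe was well above background on 1 Y+I array and 3 vehicle arrays. Its signals were -7.76, -6.43, -7.06 and -8.59 in Y+I, against -7.93, -8.03, -7.72 and -8.79 in vehicle, all close to background.

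Of the 4 genes that act on vessel width and clotting, Edn1 fell and 3 did not pass. Edn1, which encodes the vasoconstrictor endothelin 1, had signals of -7.35, -6.89, -6.80 and -6.48 in Y+I animals 1 to 4, against -5.50, -5.44, -5.51 and -5.06 in vehicle animals 1 to 4. The groups did not overlap, but the probe, at 28304023 to 28304082 on chromosome 17 of rn4, was well above background on 1 of 4 Y+I arrays (animal 4) and on all 4 vehicle arrays. Edn1 fell by 1.50 ± 0.19 (SE) on the processed signal (limma adjusted p = 0.00872). With 3 of the 4 Y+I values not well above background, no fold is given. The call held whichever animal was left out (adjusted p up to 0.0359 without vehicle animal 4). However, Edn1 passed the filter through vehicle alone, which favours a lower value in Y+I. The fits without single animals kept that filter, so they are no separate support for the call.

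The size of the Edn1 difference varied with the scale. In scanner units the processed signal was 11.6, 11.9, 17.7 and 11.7 in Y+I, against 44.8, 46.9, 42.6 and 63.3 in vehicle. These signals are below or near an offset of 50, which was added in the normexp setting; there the difference was -0.12 (adjusted p = 0.605), with groups that overlapped, from -4.42 to -3.86 in Y+I and from -4.14 to -4.01 in vehicle. The correction and the offset were then run apart. With normexp and no offset the difference was -0.62 and passed (adjusted p = 0.0196), and with 50 added to the processed signal it was -0.23 and did not (adjusted p = 0.527). In the deposited value table the difference was -0.51 (adjusted p = 0.649), with Y+I values of -5.45, -6.22, -3.80 and -5.63, against -4.89, -4.84, -4.87 and -4.45 in vehicle. There Y+I animal 3 was the highest of all 8. Leaving out both Y+I animal 2 and Y+I animal 3, the pair with the fewest spots above background, also lost the call (adjusted p = 0.0576).

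Nostrin, whose protein moves endothelial nitric oxide synthase away from the cell membrane, was higher in all 4 Y+I animals, at -3.34, -3.70, -3.83 and -3.80 in Y+I, against -4.13, -4.03, -4.33 and -4.19 in vehicle. The groups did not overlap, but the difference of 0.50 ± 0.13 (SE) did not pass (limma adjusted p = 0.100). With normexp and offset it was 0.46 and passed (adjusted p = 0.0373, where 3.20% of all features passed, 2.13% as higher). The synthase gene Nos3 itself differed by 0.00 ± 0.13, with a 95% interval of -0.30 to 0.30. Vwf, which encodes von Willebrand factor of platelet adhesion, was at 0.48, 0.79, -0.16 and 0.86 in Y+I animals 1 to 4, against 0.35, 0.21, -0.03 and 0.01 in vehicle animals. Y+I animal 3 lay below every vehicle animal and the other Y+I animals above all of them. Its difference of 0.36 ± 0.22 did not pass (adjusted p = 0.490), and its other probes gave 0.33 and 0.62.

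**Figure D2:**
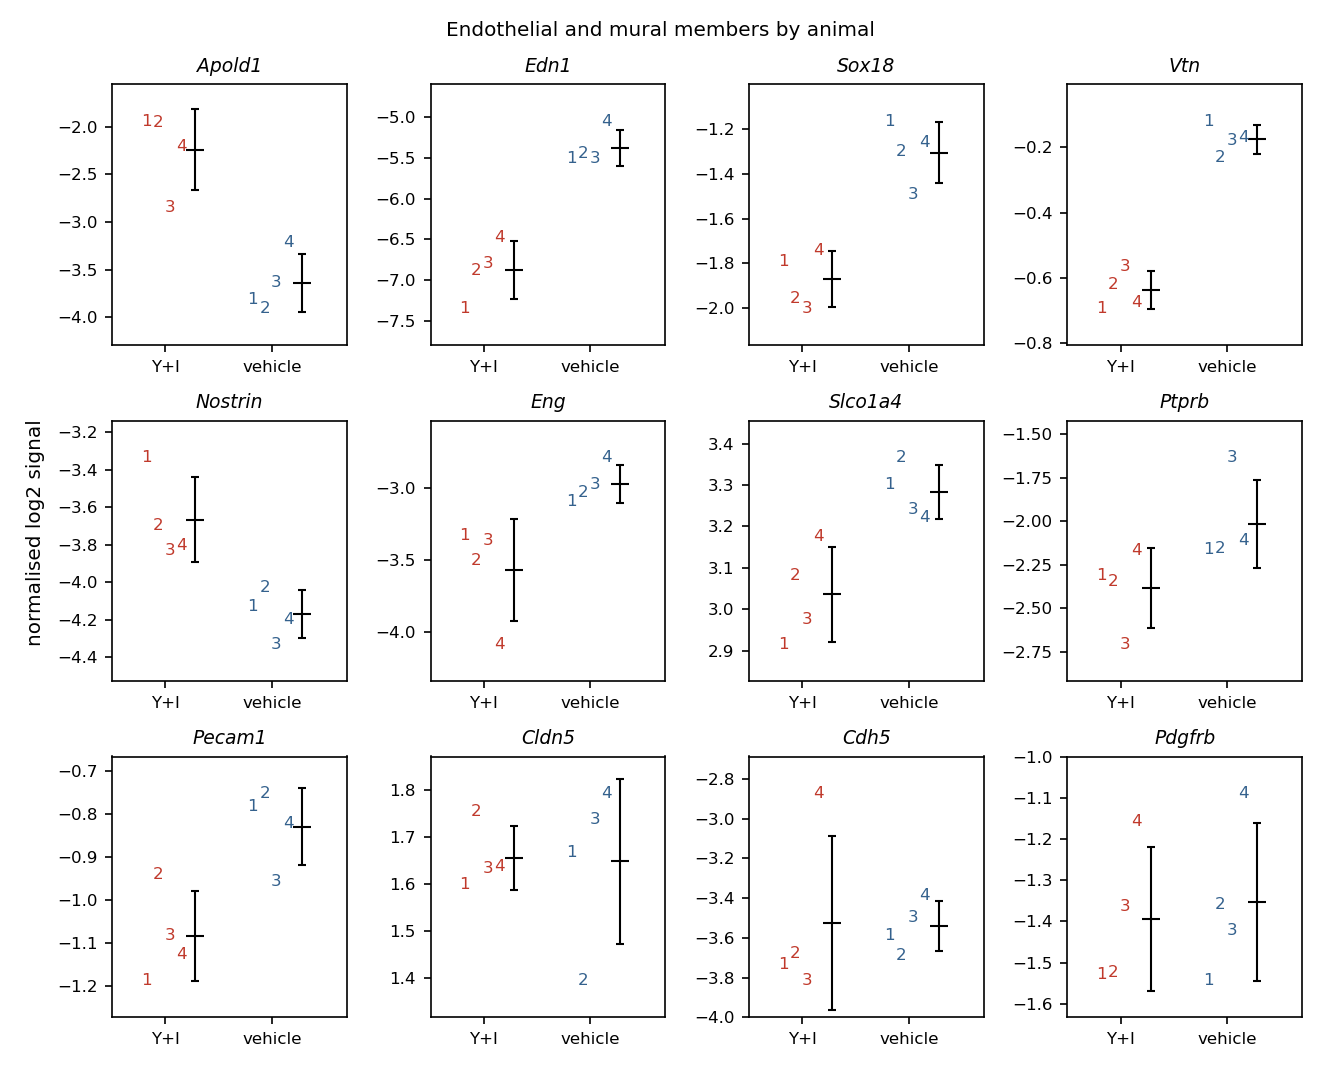
Normalised log2 signal of 12 members in each of 4 Y+I and 4 vehicle animals, with digits for the animal number and bars for the mean and SD of each group. Y+I and vehicle do not overlap for Apold1, Edn1, Sox18, Vtn, Nostrin, Eng, Slco1a4 and Ptprb, and overlap for Pecam1, Cldn5, Cdh5 and Pdgfrb; each panel has its own scale.

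Genes of cell junctions and the luminal surface showed no call: 0 of 9 passed in limma, while 2 had an unadjusted p under 0.05, as did 15.6% of all features. Cldn5, the main claudin of brain tight junctions, had signals of 1.60, 1.76, 1.63 and 1.64 in Y+I animals 1 to 4, against 1.67, 1.40, 1.74 and 1.79 in vehicle animals. The Y+I values lay inside the vehicle range, and the 95% interval of the difference ran from -0.24 to 0.26. Cdh5, the cadherin of endothelial adherens junctions, was at -3.73, -3.68, -3.81 and -2.87 in Y+I, against -3.59, -3.69, -3.50 and -3.39 in vehicle. Y+I animal 4 stood above all others, and the difference was 0.02 ± 0.20 (interval -0.44 to 0.47).

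Pecam1, an adhesion molecule found along all endothelium, was at -1.19, -0.94, -1.08 and -1.13 in Y+I, against -0.78, -0.75, -0.96 and -0.82 in vehicle. Only Y+I animal 2 and vehicle animal 3 overlapped, and the difference was -0.25 ± 0.10 (limma adjusted p = 0.234). Emcn, a sialomucin of capillary and venous endothelium, was at -4.06, -4.77, -4.04 and -3.95 in Y+I, against -3.78, -3.54, -3.73 and -3.72 in vehicle. Here the groups did not overlap, as was so for 11.7% of all features, and Y+I animal 2 lay well below the other Y+I animals. The difference of -0.52 ± 0.18 did not pass (adjusted p = 0.198) and was -0.13 with normexp and offset.

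Tjp1, the scaffold protein ZO-1 of tight junctions, was at 1.21, 1.90, 1.22 and 1.82 in Y+I, against 1.17, 1.11, 1.61 and 1.37 in vehicle. Its brighter probe gave a difference of 0.23 and its dimmer probe -0.04, so the probes differed in sign, and neither passed. The other junction and surface genes were Ocln (the tight junction protein occludin), Esam and Icam2 (adhesion molecules) and Podxl (a sialomucin). Their differences lay between -0.36 for Podxl and -0.09 for Esam, with overlapping groups. Ocln varied most between Y+I animals, from -0.27 to 1.18.

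In angiopoietin and growth factor signalling, 0 of 5 members passed in limma and 2 had an unadjusted p under 0.05 (15.6% of all features). All 5 differences were below 0 (54.1% of all features). However, 3 of these members were dim in Y+I and passed the filter through vehicle alone, which favours a lower value. With normexp and offset, 2 of the 5 were below 0. Eng, the co-receptor endoglin for ligands of the TGF-beta family, was at -3.33, -3.50, -3.36 and -4.09 in Y+I animals 1 to 4, against -3.09, -3.03, -2.97 and -2.79 in vehicle animals. The groups did not overlap, and Y+I animal 4 was the lowest. The difference of -0.60 ± 0.17 (SE) did not pass (adjusted p = 0.130). Ptprb, the endothelial phosphatase that dampens TEK, was at -2.31, -2.35, -2.71 and -2.17 in Y+I, against -2.16, -2.16, -1.64 and -2.11 in vehicle. The groups lay side by side with a gap smaller than the spread within either, and the difference was -0.37 ± 0.16 (adjusted p = 0.311).

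Tek itself, the angiopoietin receptor, was dim, at -6.36, -7.66, -5.56 and -6.47 in Y+I, against -6.59, -6.15, -6.38 and -6.32 in vehicle. The Y+I animals spread far to both sides of vehicle, and the interval of the difference ran from -0.996 to 0.692. The related receptor gene Tie1 was at -5.22, -7.25, -5.26 and -6.09 in Y+I, against -4.84, -5.37, -5.29 and -5.17 in vehicle. Y+I animal 2 was the lowest for both receptors, and Tie1 differed by -0.79 ± 0.41 (limma adjusted p = 0.405). Angpt2, the ligand that endothelial cells release, differed by -0.33 ± 0.25 (adjusted p = 0.579). Tek, Tie1 and Angpt2 were each well above background on 2 of 4 Y+I arrays.

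Of the 8 transporter genes 0 passed in limma, and 3 had an unadjusted p under 0.05, all as lower, against 9.16% of all features. Abcb1a, among these 3, passed the filter through vehicle alone, which favours a lower value. Among the 7 transporter genes well above background on all 8 arrays, 2 were so, against 7.31% of the features so measured. Slco1a4, an organic anion transporter of the barrier, was at 2.92, 3.08, 2.97 and 3.17 in Y+I, against 3.30, 3.37, 3.24 and 3.22 in vehicle. The highest Y+I animal stayed just below the lowest vehicle animal, and the difference was -0.25 ± 0.09 (SE, adjusted p = 0.244). Slc16a1, the monocarboxylate transporter for lactate and ketone bodies, was at -1.99, -1.95, -1.95 and -2.52 in Y+I, against -1.76, -1.71, -1.81 and -1.79 in vehicle. There was no overlap, and Y+I animal 4 stood apart at the low end. Its difference was -0.33 ± 0.14 (adjusted p = 0.286).

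Abcb1a, which encodes the drug efflux pump P-glycoprotein, was at -5.34, -5.25, -5.32 and -5.16 in Y+I, against -4.89, -4.90, -5.08 and -5.10 in vehicle. Y+I lay wholly below vehicle, and the difference of -0.28 ± 0.10 did not pass (limma adjusted p = 0.200). It was well above background on 3 of 4 Y+I arrays, and with normexp and offset the difference was 0.11. Mfsd2a, the carrier of lysophospholipids with omega-3 fatty acids, was at 0.44, 0.23, -0.23 and 0.19 in Y+I, against -0.02, -0.37, -0.30 and -0.05 in vehicle. Y+I animal 3 lay within the vehicle range and the others above it, and the difference was 0.34 ± 0.16 (adjusted p = 0.336).

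Slc7a5, the large neutral amino acid transporter that carries tryptophan and tyrosine, was at -2.83, -3.67, -2.64 and -3.25 in Y+I, against -2.80, -2.77, -2.55 and -2.50 in vehicle. Y+I animal 2 was the lowest, and the difference of -0.44 ± 0.21 did not pass (adjusted p = 0.365). Tfrc, the transferrin receptor for iron uptake, was at 1.43, 1.50, 1.58 and 1.58 in Y+I, against 1.24, 1.37, 1.61 and 1.81 in vehicle. Its Y+I values lay inside the vehicle range. The difference was 0.01 ± 0.13 at the brighter probe and -0.11 at a probe that was well above background on no Y+I array. Abcg2, an efflux pump, and Slco1c1, a thyroid hormone carrier, were at 0.13 and -0.21. The membrane protein gene Itm2a was at -0.18, with overlapping groups for all 3.

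**Figure D3:**
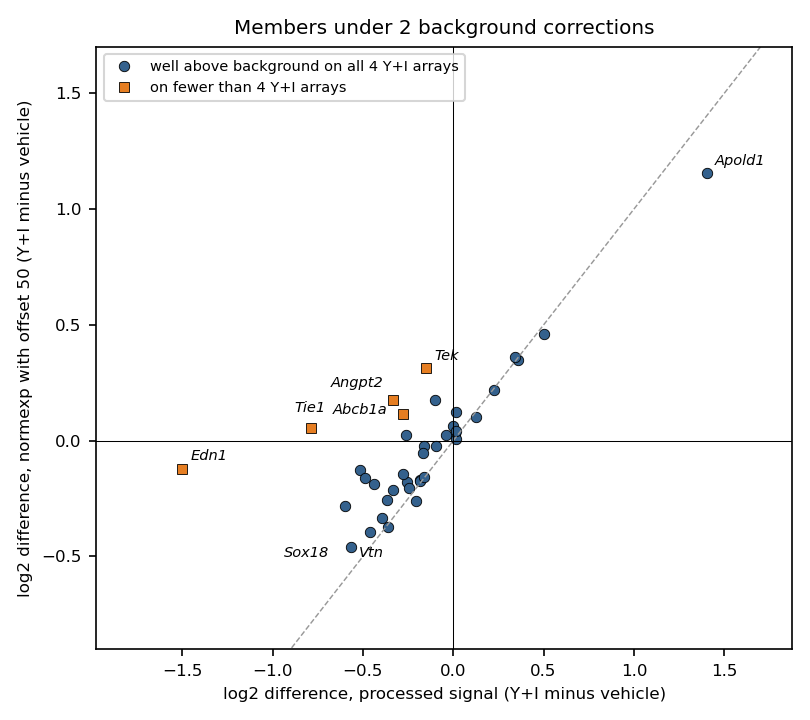
Log2 difference (Y+I minus vehicle) of the 39 tested members from the processed signal (horizontal) and after normexp background correction with an offset of 50 (vertical); the dashed line marks equal values. Squares mark the 5 members with fewer than 4 Y+I arrays well above background; these lie above the line, with Edn1 moving from -1.50 to -0.12, while Apold1, Sox18 and Vtn stay near it.

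In 5 endothelial members (Tek, Tie1, Angpt2, Edn1 and Abcb1a) at least 1 Y+I array fell short of the background limit. All 5 were below 0 on the processed signal, and with normexp and offset only Edn1 was. With normexp and no offset, Tie1, Angpt2, Edn1 and Abcb1a were below 0 (-0.24, -0.06, -0.62 and -0.20) and Tek was at 0.19. With 50 added to the processed signal, Tek, Angpt2 and Abcb1a were above 0 (0.29, 0.15 and 0.06) and Tie1 and Edn1 below (-0.03 and -0.23). The 75th percentile of the signal was 1045 to 1971 units on Y+I arrays, against 1939 to 2106 on vehicle arrays, so that a fixed offset is a larger share of the signal on some Y+I arrays. Among the 26 endothelial members well above background on all 8 arrays, 16 were below 0, with a median of -0.18, against 7586 of the 15181 features so measured. Over all 31, the median was -0.02 with normexp and offset, with 16 below 0, while all features centred at 0.09. It was -0.17 with normexp and no offset, and -0.05 with 50 added, where all features centred at 0.03 and 0.07.

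Among mural members Vtn fell. Vtn encodes vitronectin, an adhesive matrix protein that pericytes release in brain. Its signals were -0.69, -0.62, -0.56 and -0.68 in Y+I animals 1 to 4, against -0.12, -0.23, -0.18 and -0.17 in vehicle animals 1 to 4. The groups stood well apart, with an SD of 0.06 in Y+I and 0.05 in vehicle. Vtn fell by 0.46 ± 0.08 (SE), which makes it 1.38-fold lower in Y+I (limma adjusted p = 0.0286), and by 0.40 with normexp and offset (adjusted p = 0.0363). It was read by a probe on chromosome 10 of rn4, at 64611899 to 64612164. The call held without Y+I animal 2 or 3 (adjusted p = 0.0389 and 0.0399), but not without either of the other Y+I animals or any 1 vehicle animal (up to 0.107 without vehicle animal 4). It was also lost with arrays centred on the median (adjusted p = 0.0786).

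Contractile genes of smooth muscle followed with smaller differences that did not pass. Myh11, the smooth muscle myosin heavy chain, was at -1.26, -1.72, -1.24 and -1.16 in Y+I, against -1.13, -0.76, -1.01 and -0.90 in vehicle. Again Y+I lay wholly below vehicle, and the difference was -0.40 ± 0.14 (SE, limma adjusted p = 0.221), with -0.48 at the other probe. Tagln, the actin-binding protein transgelin, was at -2.63, -2.50, -2.51 and -2.52 in Y+I, against -2.40, -2.07, -2.34 and -2.24 in vehicle. Those groups did not overlap either, and the difference was -0.28 ± 0.10 (adjusted p = 0.212). Acta2, smooth muscle actin, was at -2.56, -2.37, -2.73 and -2.10 in Y+I, against -2.39, -2.24, -2.21 and -2.26 in vehicle. Y+I animal 4 was the highest of all 8, and the difference was -0.17 ± 0.14.

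Pdgfrb, Higd1b, Cspg4 and Angpt1 overlapped between groups. Pdgfrb, the platelet-derived growth factor receptor of pericytes, was at -1.53, -1.53, -1.36 and -1.16 in Y+I, against -1.54, -1.36, -1.42 and -1.09 in vehicle (difference -0.04, 95% interval -0.34 to 0.26). Higd1b, a mitochondrial protein gene found in pericytes, was at -0.70, -0.23, -0.59 and -0.76 in Y+I, against -0.84, -0.79, -0.29 and -0.41 in vehicle (difference 0.02, interval -0.36 to 0.40). Both intervals overlap that of Vtn, -0.65 to -0.28. Cspg4, the proteoglycan NG2 that oligodendrocyte precursors also carry, was at -0.16 ± 0.12. Angpt1, the TEK ligand of mural cells, was at -0.10 ± 0.14, and neither passed.

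Taken over animals, the median deviation of the endothelial members from their vehicle means was -0.10, -0.26, -0.14 and -0.16 in Y+I animals 1 to 4, against 0.00, -0.05, -0.04 and 0.03 in vehicle animals 1 to 4. For mural members it was -0.23, -0.26, -0.14 and -0.19 in Y+I, against -0.13, 0.02, -0.01 and 0.03 in vehicle. For all features it lay between -0.06 and 0.04 in Y+I. The medians of both member lists were thus below 0 in all 4 Y+I animals, while vehicle medians lie around 0 because the vehicle mean is the reference. The endothelial medians include 5 members that were dim in Y+I and passed the filter through vehicle alone, which favours a lower value. For mural members, Y+I animal 3 (-0.14) was close to vehicle animal 1 (-0.13). Individual members differed in which Y+I animal was lowest. Animals 1 to 4 were the lowest of their group for 11, 11, 10 and 7 of the 39 members (28.2%, 28.2%, 25.6% and 17.9%). Over all features these shares were 18.1%, 32.8%, 33.8% and 15.3%.

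Further genes of vessel walls, listed for what they are known for, gave both directions. Of 33 listed endothelial genes 28 were tested: Slc2a1 rose, Kdr, Clec14a and Ets1 fell, and 24 did not pass, with a median of -0.15, while 0.739% of all features were called as higher and 1.60% as lower. Of these 28, 6 were dim in Y+I and passed the filter through vehicle alone, which favours a lower value. Over the 22 genes well above background on all 8 arrays the median was -0.09. Slc2a1, the glucose transporter GLUT1 of the barrier, was at 2.64, 2.86, 2.10 and 2.81 in Y+I animals 1 to 4, against 1.91, 1.80, 1.73 and 1.68 in vehicle animals 1 to 4. All Y+I animals lay above all vehicle animals, with Y+I animal 3 the lowest of them. It rose by 0.82 ± 0.17 (SE), or 1.77-fold (limma adjusted p = 0.0430). Without Y+I animal 3 its adjusted p was 0.0105, and without any 1 of the other animals the call was lost, with adjusted p up to 0.141 without vehicle animal 4.

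Kdr, the VEGF receptor 2 of endothelium, was at 0.13, 0.36, 0.74 and 0.44 in Y+I, against 1.46, 1.36, 1.45 and 1.54 in vehicle, and fell by 1.03 ± 0.13 (limma adjusted p = 0.00932). It passed whichever animal was left out and was -1.02 with normexp and offset. The VEGF receptor Flt1 differed by -0.13 ± 0.14 (adjusted p = 0.717). Clec14a, a lectin-like surface protein of endothelium, was at -3.95, -3.13, -3.53 and -3.41 in Y+I, against -2.50, -2.72, -2.67 and -2.59 in vehicle. The groups were far apart, and it fell by 0.89 ± 0.16 (adjusted p = 0.0324), but by 0.53 with normexp and offset, where it did not pass (adjusted p = 0.0526). With normexp and no offset it passed (-0.72, adjusted p = 0.0334), and with 50 added to the processed signal it did not (-0.64, adjusted p = 0.0629). Its call held without Y+I animal 1 or 2 (0.0414 and 0.0238) and was lost in the other 6 such fits (up to 0.104 without vehicle animal 4).

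Ets1, an ETS factor of endothelial and immune cells, was well above background on no Y+I array and on all 4 vehicle arrays. Its signals were -8.29, -7.66, -7.16 and -8.41 in Y+I, against -6.26, -6.76, -6.14 and -6.48 in vehicle. It passed on the processed signal, with means of -7.88 in Y+I and -6.41 in vehicle (limma adjusted p = 0.0325). The dimmest detected spots of the Y+I arrays, at -6.74 to -5.09, are on average above the vehicle mean, so no fold is given. With normexp and offset the difference was 0.03 (adjusted p = 0.925), with normexp and no offset -0.69 (0.226), and with 50 added to the processed signal 0.03 (0.944). The call was lost in 7 of the 8 fits without single animals (up to 0.0967 without vehicle animal 4) and held without Y+I animal 3 (0.0150). Of the genes that did not pass, the smallest p belonged to Cd93 (-0.75 ± 0.18), Egfl7 (-0.40 ± 0.10) and Rasip1 (-0.31 ± 0.13), with adjusted p of 0.0772, 0.100 and 0.297.

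Of 13 listed further mural genes 11 were tested. Foxs1, a forkhead factor of pericytes, fell, and 10 did not pass, with a median of -0.26, while 1.60% of all features were called as lower. Of these 11, Anpep, Tbx18 and S1pr3 were dim in Y+I and passed the filter through vehicle alone, which favours a lower value. Over the 8 genes well above background on all 8 arrays the median was -0.24. Over all 11 it was -0.06 with normexp and offset, where all features centred at 0.09. Foxs1 was at -4.59, -4.35, -4.60 and -4.41 in Y+I, against -3.62, -3.83, -3.70 and -3.52 in vehicle. The groups were well apart, with an SD of 0.13 in each. It fell by 0.82 ± 0.11 (SE, limma adjusted p = 0.00950) and passed whichever animal was left out, but with normexp and offset the difference was -0.26 (adjusted p = 0.181). With normexp and no offset it passed (-0.49, adjusted p = 0.0287), and with 50 added to the processed signal it did not (-0.43, adjusted p = 0.132). Anpep, an aminopeptidase of pericytes, was at -0.72 ± 0.16 (adjusted p = 0.0535), and -0.07 with normexp and offset. Rgs5, a G protein regulator of pericytes, was at -0.26 ± 0.10 and the T-box gene Tbx18 at -0.45 ± 0.18, with adjusted p of 0.249 and 0.265. With normexp and offset Tbx18 was at 0.04. Anpep was well above background on 3 of 4 Y+I arrays and Tbx18 on 2 of 4.

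**Figure D4:**
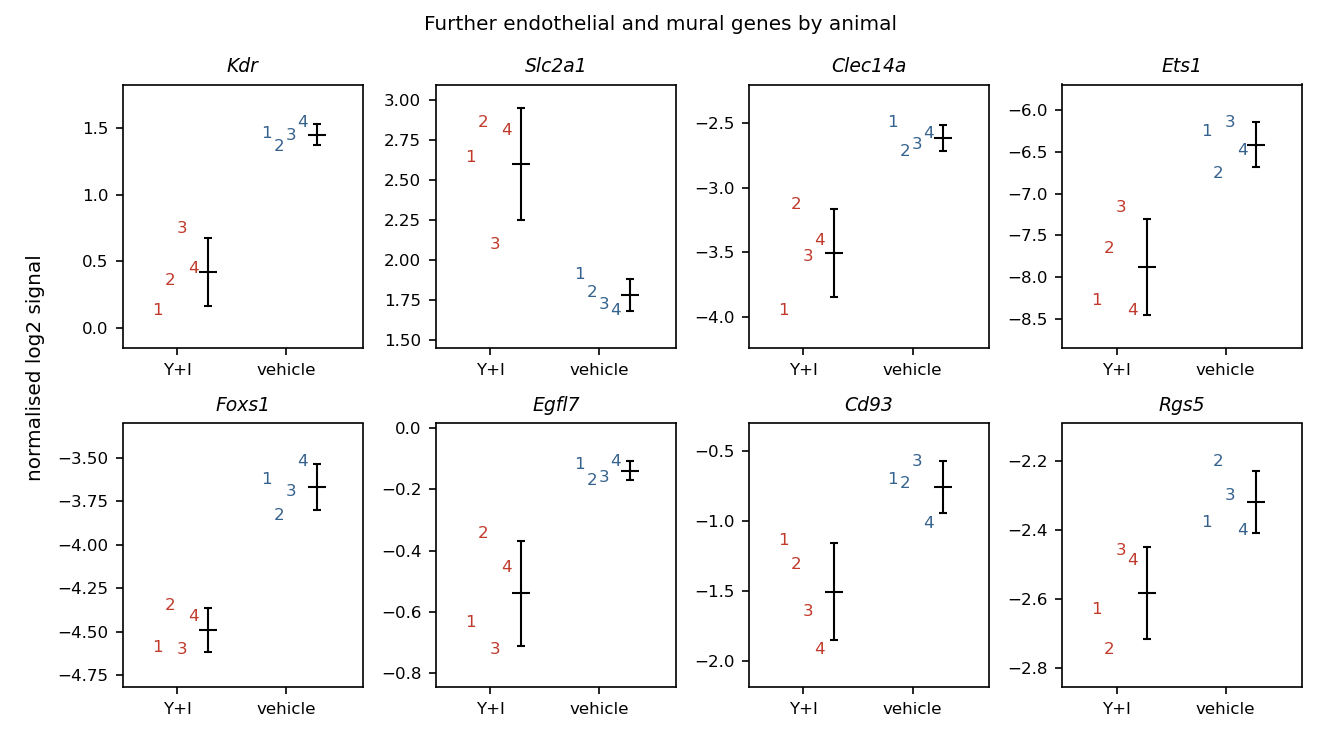
Normalised log2 signal of 8 further endothelial and mural genes in each of 4 Y+I and 4 vehicle animals, with digits for the animal number and bars for the mean and SD. All 8 genes, chosen among those with a call or a small p, show groups that do not overlap. Slc2a1 is higher in Y+I and the others are lower. Groups did not overlap for 7 of 28 tested further endothelial and 4 of 11 tested further mural genes, against 11.7% of all features. Of these, Ets1, Anpep and Tbx18 passed the filter through vehicle alone, which favours a lower value. Each panel has its own scale.

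Markers of other cells in the sample are given beside these results, and their part in them was not tested. Meningeal and fibroblast markers were below 0 in 11 of 12 genes (54.1% of all features) with 3 lower calls (1.60% of all features) and a median of -0.59. Of these 12, Lum and Aldh1a2 were dim in Y+I and passed the filter through vehicle alone, which favours a lower value. Among the 10 well above background on all 8 arrays, 9 were below 0, against 7586 of the 15181 features so measured. The median of these 10 was also -0.59. With normexp and offset, 9 of the 12 were below 0. The summed signal of the 12 markers is given in multiples of the 75th percentile of the array, in which bright probes weigh most. It was 4.69 to 5.32 in Y+I, against 6.80 to 8.32 in vehicle. For blood cells, the red cell genes Hbb and Alas2 fell, while 1.60% of all features were called as lower. The neutrophil genes S100a8 and S100a9 were at 2.18 and 2.08 and did not pass. The summed signal of the blood genes, in which Hbb weighs most by far, was 6.75 to 10.6 in Y+I, against 15.2 to 17.5 in vehicle. With single animals left out, Hbb passed in 5 of 8 fits and Alas2 in 1 of 8. Astrocyte markers had 0 of 9 calls in limma, with 1 unadjusted p under 0.05, as lower (9.16% of all features). Their summed signal was 76.0 to 94.5 in Y+I, against 77.3 to 85.5 in vehicle. Microglial markers had 0 of 9 (2 unadjusted, as lower), with 14.6 to 20.9 in Y+I and 16.4 to 18.6 in vehicle. Of 9 choroid plexus markers 5 were tested and 0 passed, with 0.40 to 1.55 in Y+I and 0.32 to 4.63 in vehicle. By unadjusted p 1 was higher and 1 lower, against 6.46% and 9.16% of all features. Aqp1 and Sostdc1 were dim in Y+I and passed the filter through vehicle alone, which favours a lower value.

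Hippocampal neuron markers, among them Camk2a, Neurod6 and Fibcd1, were above 0 in 8 of 8 genes, as were 8628 of all 18803 features. Their median was 0.57, and 7 of them were well above background on all 8 arrays (Prox1 on 2 of 4 Y+I arrays). Camk2a, a calcium-dependent kinase subunit of excitatory neurons, rose (0.78 ± 0.15, limma adjusted p = 0.0366), while 0.739% of all features were called as higher. Its call was lost whichever animal was left out (adjusted p up to 0.106 without vehicle animal 2). The summed signal of these markers was 46.5 to 51.7 in Y+I, against 23.6 to 39.6 in vehicle. Fibcd1, the brightest of them, weighs most in this sum. Its own groups overlapped and it did not pass (0.57 ± 0.22, limma adjusted p = 0.260).

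**Figure D5:**
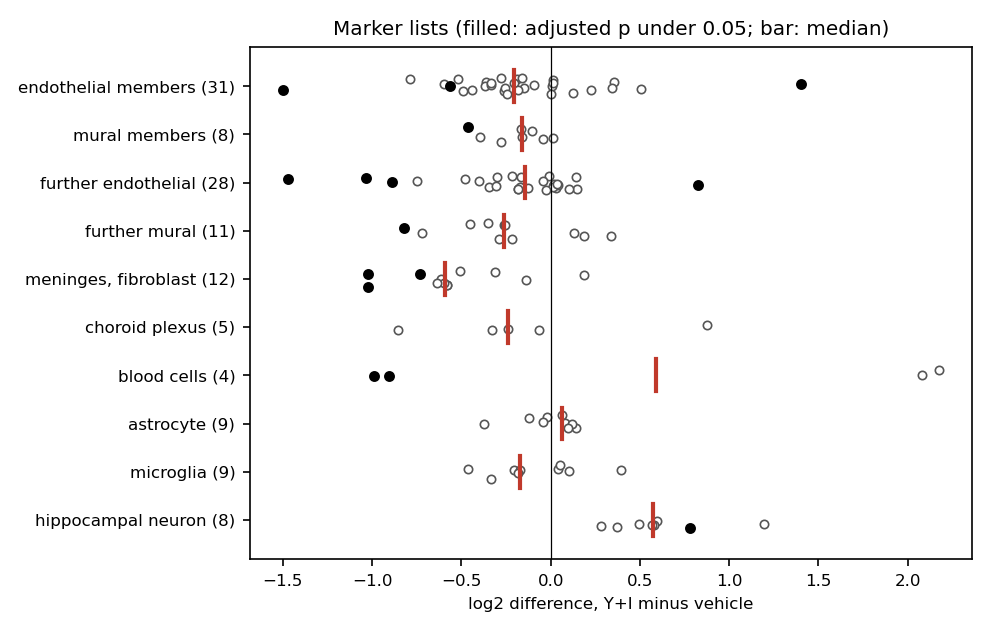
Log2 difference, Y+I minus vehicle, of every tested gene in 10 marker lists, with the number of genes in brackets, filled points for adjusted p under 0.05 and a bar at the median. Endothelial and mural members centre at -0.21 and -0.16, meningeal markers at -0.59 and hippocampal neuron markers at 0.57.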

How the data were processed

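Hippocampal RNA was labelled with Cy3 and hybridised to Agilent rat arrays, per the labels' protocols, and the titles gave group and animal number. Per the file headers, Feature Extraction 10.5.1.1 gave for each spot a mean and background intensity and a processed intensity, background-subtracted and detrended but not normalised between arrays. The authors' deposited value table holds log2 values; how they were centred is not stated in those sources. Its columns matched the scanner values with r of at least 0.9986 (lowest in Y+I animal 3), with medians from -3.51 to -3.35 and a 75th percentile close to 0.01. It served as an alternative.

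Spots marked as outliers were dropped and spots of a probe averaged. Of 30367 probes, 21370 were kept: in either group, each of the 4 arrays had 50% or more of the probe's spots above background, and both groups had 3 or more values. Each gene was represented by its brightest kept probe, giving 18803 features. Symbols were matched to RefSeq of GRCr8; probe positions are on rn4, per the file headers. Differences were fitted with lmFit and eBayes (limma 3.58.1, R 4.3.3), two-sided, over all features, and the procedure was tested on simulated data. The members and gene lists were chosen with earlier results of these data known. Values in every animal are given for members that passed, whose groups did not overlap or whose probes differed in sign, for 7 standard markers, and for the next members by p; others are summarised. Promoters were found for 22 of the 40 members. Same-numbered animals did not deviate together (r between -0.11 and 0.05), so numbers were not treated as pairs. The alternative background correction was normexp on the mean and background intensities with an offset of 50. Normexp with no offset, and the processed signal plus 50, were added after seeing the data. Figures were drawn with matplotlib 3.10.9.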

Additional observations from a re-analysis of the deposited data

Results flagged for a closer look

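In 5 cases 1 of the 4 animals of a group stood far from the other 3, by the ratio of its gap to the range of the group. Over 88 groups of 4 examined, chance alone flags about 1 in 20. Cdh5 in Y+I animal 4 was at -2.87, against -3.81 to -3.68 in the other Y+I animals (ratio 0.855). Emcn in Y+I animal 2 was at -4.77, against -4.06 to -3.95 (ratio 0.864). Slc16a1 in Y+I animal 4 was at -2.52, against -1.99 to -1.95 (ratio 0.935). Ptprb in vehicle animal 3 was at -1.64, against -2.16 to -2.11 in the other vehicle animals (ratio 0.898). Edn1 in vehicle animal 4 was at -5.06, against -5.51 to -5.44 (ratio 0.857).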

How the results depend on the processing

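Over 44 named genes and 22 alternatives, of which normexp with no offset and the processed signal plus 50 were chosen after seeing the data, 836 of 962 comparisons kept the sign and the side of the threshold. Of the rest, 65 lost a call, 3 gained one and 58 changed sign; the causes were not tested. Called endothelial members (3) numbered 1 with the replicate block and 1 without Y+I animals 2 and 3, and 1 to 2 with single animals left out. The called mural member (1) was lost, leaving 0, with median centring, with the replicate block and without Y+I animals 2 and 3, and 0 to 1 were called with single animals left out. Further endothelial calls (4) numbered 2 with median centring, 2 with cyclic loess, 2 with normexp and offset, 2 with 50 added to the processed signal, 1 with the replicate block and 1 to 4 with single animals left out. Further mural calls (1) numbered 2 with median centring, 2 with no filter, 2 with array weights, 0 with normexp and offset, 0 with 50 added to the processed signal, 0 with the replicate block and 1 to 2 with single animals left out. Animal numbers are shared by the groups but did not pair the samples, so a call lost with the block is no sign of a smaller difference.

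With normexp and offset, the further endothelial median changed sign to 0.043, Icam2 to 0.024, Tek to 0.31, Tie1 to 0.053, Angpt2 to 0.18, Abcb1a to 0.11, Pdgfrb to 0.026, Angpt1 to 0.17 and Ets1 to 0.028. With normexp and no offset, that median was 0.00654, Tek 0.19, Pdgfrb 0.0098 and Angpt1 0.062. With 50 added to the processed signal, that median was 0.017, Cldn5 -0.0011, Tek 0.29, Angpt2 0.15, Abcb1a 0.060, Angpt1 0.10 and Ets1 0.026. With array weights, Cdh5 became -0.11, Cldn5 -0.040, Esam 0.10, Nos3 -0.036, Tfrc -0.10, Angpt1 0.064 and Higd1b -0.10. Without Y+I animals 2 and 3, Cldn5 became -0.030, Esam 0.033, Ocln 0.36, Nos3 -0.10, Tfrc -0.0052, Pdgfrb 0.010 and Higd1b -0.15. Quantile normalisation gave Cldn5 -0.0084 and Tfrc -0.0036, cyclic loess gave Cldn5 -0.0033 and Tek 0.047, and the mean of probes gave Tfrc -0.048. With single animals left out, differences ran from -0.20 to 0.11 for Cdh5, -0.077 to 0.056 for Cldn5, -0.22 to 0.079 for Esam, -0.48 to 0.0046 for Ocln, -0.47 to 0.23 for Tek, -0.10 to 0.086 for Nos3, -0.077 to 0.11 for Tfrc, -0.12 to 0.047 for Pdgfrb and -0.10 to 0.11 for Higd1b. Signal over background limits Edn1, Tek, Tie1, Angpt2, Abcb1a, Ets1, Anpep and Tbx18.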
